A study of Mus musculus with 9 samples.

Results

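The regulators of G-protein signalling studied here are 10 mouse genes, Rgs1, Rgs2, Rgs3, Rgs10, Rgs12, Rgs13, Rgs14, Rgs16, Rgs18 and Rgs19, chosen by name from a list. They were read by 19 of the 41174 probes on the array. Of the 10 genes, 9 passed the filter on dim probes and were tested among 12054 genes, and Rgs13 did not pass it. All samples came from A-MuLV (Abelson virus) transformed pro-B cells, a growing cell culture that stands for an early step of B-cell development, of the genotype Ebf1fl/fl;RERTCre on the C57Bl/6 background. In these cells 4-hydroxytamoxifen activates the Cre recombinase, which deletes Ebf1, whose product is a transcription factor that commits progenitors to the B lineage. EBF1ΔC cells carried a retroviral pmys-IRES-GFP vector with EBF1 lacking its C-terminal domain, EBF1wt cells the same vector with full-length EBF1, and Mock cells were mock-transduced. All 3 groups received 2 µM 4-hydroxytamoxifen; for EBF1wt replicate 3 the agent is missing from the source name but present in the description, and the array was kept. For both EBF1 groups it was given 24 hours after transduction, the GFP-positive cells were sorted 5 days later and then grown for more than 2 weeks, whereas Mock cells were taken 4 days after tamoxifen, ahead of their death. With 3 arrays per group precision is limited by their number, and the labels do not tell whether replicates were separate cultures, so the p-values may measure technical spread only.

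RGS proteins bind the active alpha subunit of a heterotrimeric G protein and speed its hydrolysis of GTP, which ends the signal of a G-protein-coupled receptor. In B-lineage cells they set how strongly and how long the cells answer chemokines and lipid mediators such as sphingosine 1-phosphate. The R4 subfamily (Rgs1, Rgs2, Rgs3, Rgs13, Rgs16 and Rgs18) consists mostly of small proteins, the R12 subfamily (Rgs10, Rgs12 and Rgs14) is selective for Gi-type alpha subunits, and Rgs19 belongs to the RZ subfamily.

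Probe positions are those of the array files on mm9 (NCBI37), and no gene model of that build was used to place them in exons or UTRs. To identify the probes on which the results turn, the first 30 of their 60 bases are given 5′ to 3′. Rgs1 was read at chr1:146091962-146092021 (minus strand), Rgs2 by its brightest probe at chr1:145848293-145848352 (minus strand), Rgs10 at chr7:135517256-135517315 (minus strand) and Rgs16 at chr1:155592244-155592303 (plus strand). Rgs19 was read at chr2:181423447-181423506 and chr2:181423795-181423854 (both minus strand), and both of its probes are shown since their results differed.
Rgs1 A_51_P260683: cccttggataaccagtccaaaagtatatag
Rgs2 A_51_P419768: agggtgttgacgttcttaggactacagatc
Rgs10 A_51_P218774: gaccttccctctggatatgtgtattttatt
Rgs16 A_51_P249286: gagagaactcttttaagtataatattgtgt
Rgs19 A_52_P555235: tcaaaaaagagacctttcacattcatgtgt
Rgs19 A_51_P388984: ctctctattactccagggggccccacagtc

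The promoters of Rgs10 and Rgs16 are shown because these genes had the 2 largest changes of EBF1ΔC over EBF1wt among the members. RefSeq windows on GRCm38.p6 were searched on both strands for CCCNNGGG, the core of the sequence that EBF1 is known to bind, and for the longer TCCCNNGGG, whose matches all contain the shorter one. Each sequence below is the 250 bases before the transcription start, 5′ to 3′ in the direction of the gene, and capitals mark matches to CCCNNGGG.
Rgs10, chr7:128418173-128418422, minus strand: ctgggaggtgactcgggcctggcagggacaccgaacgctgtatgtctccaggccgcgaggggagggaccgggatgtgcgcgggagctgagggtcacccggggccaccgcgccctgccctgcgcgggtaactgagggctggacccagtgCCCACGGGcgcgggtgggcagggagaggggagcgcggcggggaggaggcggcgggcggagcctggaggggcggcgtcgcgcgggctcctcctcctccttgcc
Rgs16, chr1:153740103-153740352, plus strand: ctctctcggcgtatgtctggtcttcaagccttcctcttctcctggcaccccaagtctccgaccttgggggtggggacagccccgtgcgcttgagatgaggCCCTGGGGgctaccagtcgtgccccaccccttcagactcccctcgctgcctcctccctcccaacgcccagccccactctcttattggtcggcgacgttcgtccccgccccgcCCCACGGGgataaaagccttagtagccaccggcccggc
The Rgs10 match begins at position -102 from the start, and the Rgs16 matches at -150 and -38. Windows of 300 bases (250 before and 50 after a start) were at hand for 7 of the 10 genes, 11 windows in all. CCCNNGGG was found in 5 of the 11, those of Rgs10 and Rgs16, both of Rgs12 (at -145 and -245) and 1 of the 3 of Rgs19 (at -53), and in 13.7% of 32851 windows of all genes. TCCCNNGGG was found in 1 of the 11, that of Rgs19, and in 6.56% of all windows. The windows of Rgs2, Rgs3 and Rgs13 held neither. A match is a stretch of letters and was not tested as a binding site.

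Signal is given as log2 of the processed spot intensity relative to the 75th percentile of the array, so that 0 stands for that percentile. Levels of different probes cannot be set against each other on this scale. The summed levels of marker lists add the markers' levels on the linear scale, so the brightest probes weigh most and changes of dimmer markers hardly show. A gene was called when its Benjamini-Hochberg adjusted p over all 12054 genes was under 0.05 and its change at least 2-fold in limma. Pro-B markers were present throughout, with 10 of 10 (among them Pax5, Vpreb1 and Rag1) well above background on all arrays of each group. Their summed level was 881 to 911 in EBF1ΔC, 867 to 935 in EBF1wt and 274 to 288 in Mock arrays. Against Mock, 6 of the 10 were called higher in EBF1wt and 4 in EBF1ΔC, beside 6.6% and 6.25% of all genes, and 0 were called lower. Igll1 was higher than in Mock by 6.97 in EBF1wt and 5.89 in EBF1ΔC on the log2 scale. Between the EBF1 forms, Rag1 (2.14) and Dntt (1.51) were called higher in EBF1ΔC and Igll1 (-1.08) lower (limma adjusted p = 0.0292, 0.0235 and 0.00168). The Ebf1 transcript averaged 3.80 ± 0.06 in EBF1ΔC, 3.06 ± 0.17 in EBF1wt and 1.45 ± 0.28 in Mock arrays (SD, n = 3) by its brighter probe. The second probe, A_52_P531838, ran the other way, at -6.47 ± 0.98 in EBF1ΔC, -6.21 ± 0.34 in EBF1wt and -2.59 ± 0.38 in Mock arrays, and was well above background on 0, 0 and 3 of 3 arrays. Whether either probe lies in the deleted or the retroviral sequence was not settled. Both probes were well above background on all Mock arrays, so these values do not show that Mock cells had lost the Ebf1 transcript. Mock arrays lay on slides of their own (slides 1 and 2). By the file headers they were also scanned on another day than all arrays of the EBF1 groups. So slide, scan day, sorting and time after tamoxifen cannot be told apart from the retroviral EBF1 in any comparison with Mock. EBF1wt replicate 2 stood apart from its group and shared slide 4 with EBF1ΔC replicate 3, and EBF1wt replicate 3 shared slide 5 with EBF1ΔC replicate 1. For Rgs10 and Rgs16, EBF1wt replicate 2 deviated by -1.75 and -3.99 from the mean of the other EBF1wt arrays. EBF1ΔC replicate 3 deviated the other way, by 1.23 and 1.32 from the mean of the other EBF1ΔC arrays. Its median signal was also the highest of its group (22.7, beside 15.6 and 14.1). Both deviations widen the differences of these genes between the EBF1 forms. Values without EBF1wt replicate 2 and within these slides are given where they matter.

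Between EBF1ΔC and EBF1wt cells, 1 of the 9 tested members was called, Rgs10, which was 6.43-fold higher in EBF1ΔC. In the same comparison 2.71% of all tested genes were called, 1.39% higher and 1.33% lower. Rgs16 showed a wider gap still but missed the adjusted p. Between EBF1wt and Mock cells, 2 of 9 members were called, Rgs2 higher and Rgs1 lower, beside 19.5% of all genes (6.6% higher and 12.9% lower). Between EBF1ΔC and Mock cells, 3 of 9 were called, Rgs2 and Rgs10 higher and Rgs1 lower, beside 18.1% of all genes (6.25% higher and 11.9% lower). By the adjusted p alone, 1, 4 and 4 members passed in these comparisons in turn, beside 9.03%, 66.5% and 64.2% of all genes. Against Mock, the counts of calls thus lay near or somewhat above the shares among all genes and the counts by the adjusted p alone below them, and no test was made of the list. Both comparisons with Mock use the same 3 Mock arrays. The median change of the members was 0.13 on the log2 scale for EBF1ΔC over EBF1wt, -0.15 for EBF1wt over Mock and 0.21 for EBF1ΔC over Mock, beside medians of -0.006, 0.12 and 0.10 over all genes.

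**Figure D1:**
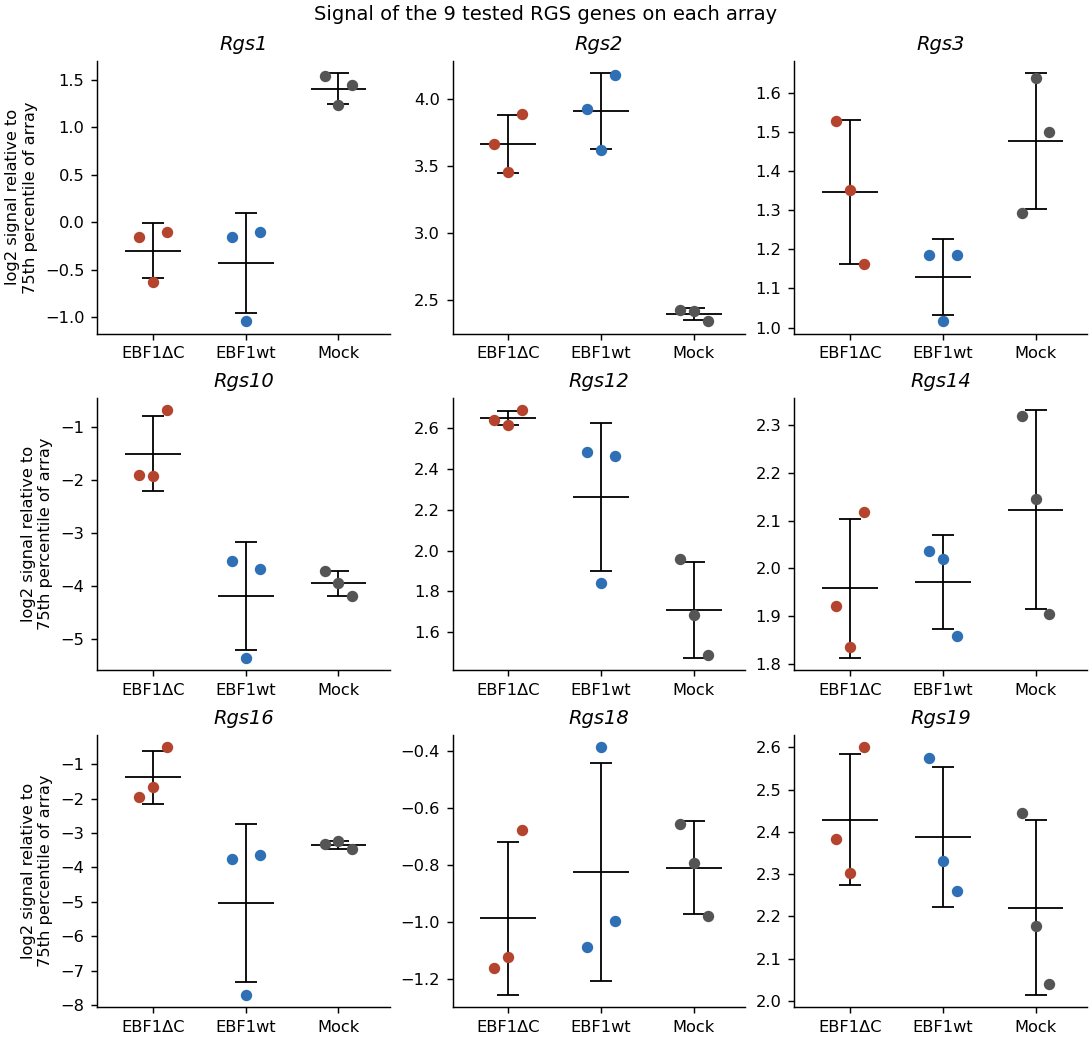
Log2 signal (array 75th percentile = 0) for the 9 tested RGS genes, with 1 point per array, the group mean as a line and the SD as bars; each panel has its own vertical axis. EBF1ΔC lies above both other groups for Rgs10 and Rgs16 without overlap, both EBF1 groups lie above Mock for Rgs2 and below it for Rgs1, and the low EBF1wt point of Rgs16 at -7.69 is replicate 2.

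Rgs1, of the R4 subfamily, dampens chemokine responses of B cells through Gi- and Gq-type alpha subunits. Its signal was -0.16, -0.63 and -0.10 in EBF1ΔC cells, -0.15, -1.04 and -0.10 in EBF1wt cells, and 1.55, 1.23 and 1.45 in Mock cells. Every array of both EBF1 groups lay below every Mock array, and the EBF1 groups overlapped. Rgs1 was 3.26-fold lower in EBF1ΔC than in Mock (log2 change -1.71, SE 0.26, limma adjusted p = 0.000542). It was 3.58-fold lower in EBF1wt than in Mock (-1.84, SE 0.26, adjusted p = 0.000342). EBF1ΔC and EBF1wt differed by 0.13 (adjusted p = 0.794). In bulk RNA, fewer cells that make a transcript and less transcript per cell cannot be told apart. Of 7 tested markers of mature B cells, 6 were called lower than in Mock in each EBF1 group, as Rgs1 was. Among all genes 11.9% were called lower in EBF1ΔC and 12.9% in EBF1wt. Ms4a1 was not called, at 0.43 in EBF1ΔC and -0.52 in EBF1wt (limma adjusted p = 0.383 and 0.288). The summed level of these markers was 6.08 to 9.81 in EBF1ΔC, 4.57 to 10.0 in EBF1wt and 77.0 to 88.3 in Mock arrays. On all arrays of either EBF1 group 6 of 7 were well above background (Fcer2a on none), and 7 of 7 in Mock. Markers of germinal centre B cells stood at 0.822 to 1.12 in EBF1ΔC, 0.537 to 0.703 in EBF1wt and 5.26 to 5.77 in Mock arrays, with 3, 3 and 4 of 6 well above background on all arrays; Gcsam was on no array above it, Fas on none of EBF1wt, and S1pr2 on none of Mock. Their part in the Rgs1 result was not tested.

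Rgs2 acts mainly on Gq-type alpha subunits. By its brightest probe the signal was 3.66, 3.45 and 3.88 in EBF1ΔC cells, 3.92, 3.62 and 4.18 in EBF1wt cells, and 2.43, 2.42 and 2.35 in Mock cells. Both EBF1 groups lay above Mock on every array and overlapped each other. Rgs2 was 2.40-fold higher in EBF1ΔC than in Mock (log2 change 1.27, SE 0.15, limma adjusted p = 0.000175) and 2.84-fold higher in EBF1wt than in Mock (1.51, SE 0.15, adjusted p = 6.43e-05). The change of EBF1ΔC over EBF1wt was -0.24 and did not pass (adjusted p = 0.374). The other 2 Rgs2 probes, both dim, gave the same direction against Mock. Probe A_52_P378968 (chr1:145847227-145847286) gave 1.42 for EBF1ΔC and 1.26 for EBF1wt over Mock, where 1 of 3 Mock arrays was well above background (limma adjusted p over 22357 probes 0.00484 and 0.00847). Probe A_52_P92568 (chr1:145849832-145849891) was well above background on no Mock array, so that only bounds can be given: at least 2.10-fold higher in EBF1ΔC and at least 2.73-fold higher in EBF1wt. The bound rests on the dimmest signal counted as well above background on each Mock array, or the probe's own where higher.

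Rgs16, which acts on Gi- and Gq-type alpha subunits, had a signal of -1.96, -1.68 and -0.50 in EBF1ΔC cells, -3.76, -7.69 and -3.64 in EBF1wt cells, and -3.31, -3.24 and -3.47 in Mock cells. EBF1ΔC lay above all 6 other arrays, and EBF1wt replicate 2, where the probe was not well above background, lay far below the rest. The log2 change was 3.65 for EBF1ΔC over EBF1wt (SE 0.97, 12.6-fold), and it missed the threshold with a limma adjusted p of 0.0527. Without EBF1wt replicate 2 the change shrank to 2.32 and was called (adjusted p = 0.0105). With any 1 array left out it ran from 2.32 to 4.35. Within the slides that held both groups the difference was 7.19 on slide 4, the slide of EBF1wt replicate 2, and 1.68 on slide 5. Against Mock, the EBF1ΔC change was 1.96 (SE 0.97, adjusted p = 0.107), which was called when the spread shared by all groups was estimated without EBF1wt replicate 2 (adjusted p = 0.00131). EBF1wt gave -1.69 against Mock (adjusted p = 0.152), and -0.37 without replicate 2.

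Rgs3, an R4 member with long and short isoforms, had 5 probes, of which 1 passed the filter. By that probe (chr4:62350689-62350748, plus strand) the signal was 1.53, 1.35 and 1.16 in EBF1ΔC cells, 1.19, 1.02 and 1.18 in EBF1wt cells, and 1.29, 1.64 and 1.50 in Mock cells. EBF1wt lay below Mock on every array, by -0.35 on the log2 scale (SE 0.12, limma adjusted p = 0.033), short of 2-fold; with arrays scaled to their median the sign turned (0.36). The EBF1ΔC changes were 0.22 over EBF1wt (adjusted p = 0.314) and -0.13 against Mock (adjusted p = 0.375). The other 4 probes, between chr4:62320758-62320817 and chr4:62363141-62363200, were well above background on at most 2 arrays of any group. So the Rgs3 values describe the transcripts that carry the sequence of 1 probe.

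Rgs18, best known from megakaryocytes and platelets, was read well above background on all 9 arrays. Its signal was -1.16, -1.12 and -0.68 in EBF1ΔC cells, -1.09, -0.39 and -1.0 in EBF1wt cells, and -0.66, -0.79 and -0.98 in Mock cells. The groups overlapped in each comparison. The log2 changes were -0.16 for EBF1ΔC over EBF1wt, -0.01 for EBF1wt over Mock and -0.18 for EBF1ΔC over Mock (limma adjusted p = 0.674, 0.954 and 0.471). Its second probe gave -0.22, 0.11 and -0.11. No group had any of 6 megakaryocyte markers, such as Itga2b, Pf4 and Gp9, well above background throughout, and their summed level was 0.0531 to 0.0802 in EBF1ΔC, 0.0471 to 0.0525 in EBF1wt and 0.0709 to 0.0758 in Mock arrays.

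Rgs13, known from germinal centre B cells and mast cells, was not well above background on any of the 9 arrays. Its signal ran from -7.27 to -5.59 in EBF1ΔC, from -7.37 to -5.17 in EBF1wt and from -7.15 to -6.59 in Mock cells, and no fold can be given. Likewise no group had any of 5 mast cell and basophil markers well above background throughout (summed level 0.0373 to 0.0625 in EBF1ΔC, 0.0290 to 0.0394 in EBF1wt and 0.0411 to 0.202 in Mock arrays).

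Rgs10 is the smallest member of the R12 subfamily and is known from macrophages, microglia and lymphocytes. Its signal was -1.89, -1.92 and -0.67 in EBF1ΔC cells, -3.52, -5.35 and -3.67 in EBF1wt cells, and -3.71, -3.93 and -4.19 in Mock cells. All EBF1ΔC arrays lay above all others, with replicate 3 highest, while EBF1wt and Mock overlapped. The group means were -1.49 ± 0.71 in EBF1ΔC, -4.18 ± 1.01 in EBF1wt and -3.94 ± 0.24 in Mock cells (SD, n = 3). Rgs10 was higher in EBF1ΔC than in EBF1wt by 2.69 on the log2 scale (SE 0.50, limma adjusted p = 0.016). It was 5.46-fold higher in EBF1ΔC than in Mock (2.45, SE 0.50, adjusted p = 0.00294). EBF1wt and Mock differed by -0.24 (adjusted p = 0.695).

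The size of the Rgs10 difference moved with single arrays, and EBF1ΔC was the higher group in each alternative run. Without EBF1wt replicate 2 the change over EBF1wt was 2.10 (limma adjusted p = 0.0131), and with any 1 array left out it ran from 2.10 to 3.02. Within slides it was 4.67 on slide 4 and 1.78 on slide 5. Of 22 alternatives with a test, 19 kept the call over EBF1wt. It was lost without a filter on dim probes (2.69, adjusted p = 0.0522), in a fit of only these 2 groups (2.69, adjusted p = 0.0628) and with slide as a fixed block (3.23, adjusted p = 0.134, 2 residual degrees of freedom). It was smallest with the authors' deposited values (1.17) and with normexp correction (1.27). The call over Mock was kept in all 21 alternatives, from 1.28 to 3.0. Rgs16 was called over EBF1wt in 7 of 21 alternatives.

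**Figure D2:**
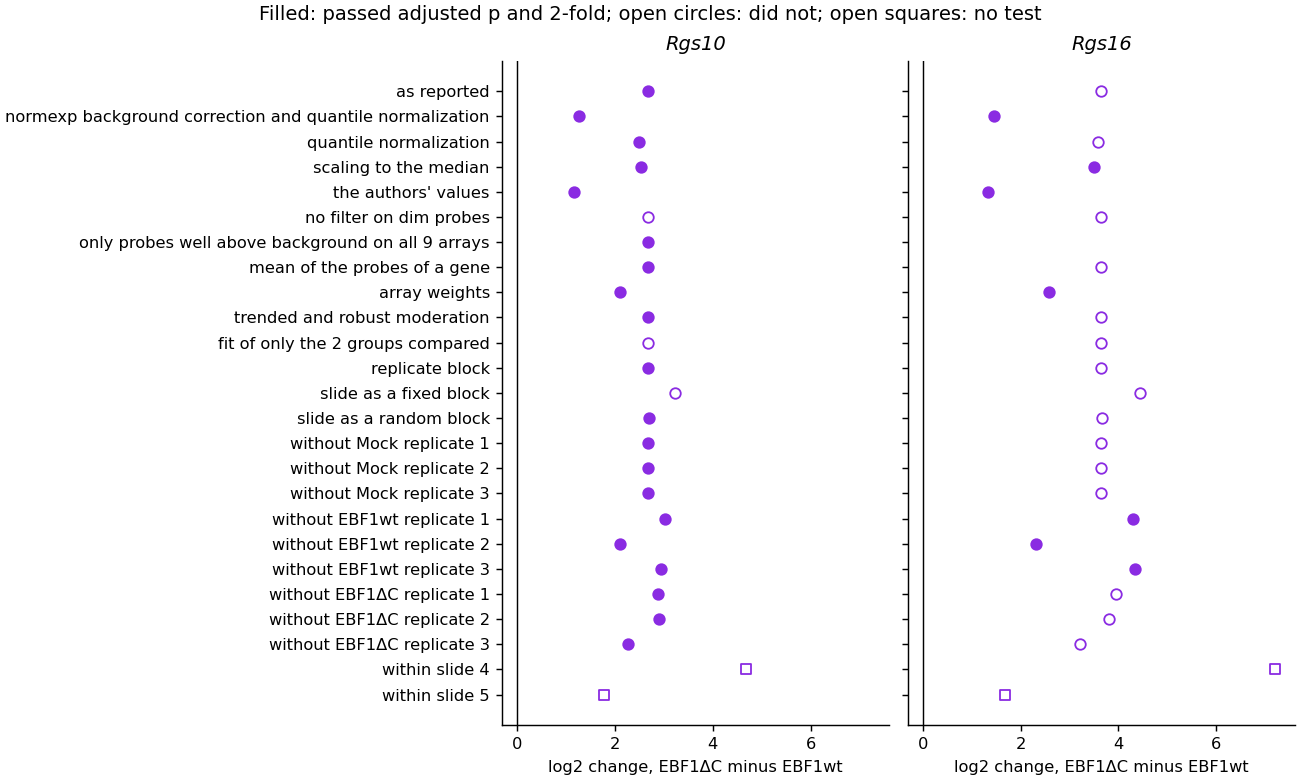
Log2 change of Rgs10 and Rgs16 in EBF1ΔC minus EBF1wt as reported and under each alternative processing or left-out array, with filled circles for calls, open circles for no call and squares for untested differences within 1 slide. All points lie above 0; Rgs10 runs from 1.17 to 4.67 and Rgs16 from 1.34 to 7.19, and the blank in the Rgs16 panel marks the filter it does not pass.

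Markers of myeloid cells, in which Rgs10 is also known, had a summed level of 10.9 to 18.7 in EBF1ΔC, 2.25 to 6.86 in EBF1wt and 39.8 to 41.2 in Mock arrays. Of 9 such markers, 3 in EBF1ΔC, 4 in EBF1wt and 4 in Mock cells were well above background on all arrays. Mpo, Elane and Cebpa were so on no array, and Csf1r and Itgam on none of either EBF1 group. The 4 that could be tested did not run one way. Lyz2, which encodes lysozyme, was the one called between the EBF1 forms, 3.10 higher in EBF1ΔC on the log2 scale (limma adjusted p = 0.0211), and it was 5.16 higher in EBF1ΔC than in Mock. Tyrobp gave -1.0 for EBF1ΔC over EBF1wt (adjusted p = 0.026, just short of 2-fold), and Fcgr3 (0.35) and Ly6c2 (0.07) did not pass. These 3 were lower in EBF1ΔC than in Mock. Of the 7 tested markers of mature B cells, 3 were called higher in EBF1ΔC than in EBF1wt, beside 1.39% of all genes. These were Ciita by 2.24, H2-Aa by 2.68 and H2-Eb1 by 2.37, with a list median of 0.95. All 3 were lower in EBF1ΔC than in Mock. Markers of T and NK cells stood at 9.78 to 11.5 in EBF1ΔC, 2.78 to 5.56 in EBF1wt and 5.43 to 6.26 in Mock arrays, with 3, 3 and 5 of 9 well above background on all arrays and Cd4, Cd8a and Ncr1 on none. Of 5 tested, 3 were called higher in EBF1ΔC than in EBF1wt, beside 1.39% of all genes, with a list median of 1.28. These were Klrd1 by 1.32, Lck by 1.28 and Nkg7, which was well above background on no array of either EBF1 group. Cd3d (0.57) and Cd3e (-0.18) did not pass. Plasma cell markers stood at 3.55 to 4.13 in EBF1ΔC, 5.39 to 7.07 in EBF1wt and 10.53 to 10.91 in Mock arrays, with 4 of 5 well above background in each group and Prdm1 on none. Of 4 tested, Jchain was called lower in EBF1ΔC than in EBF1wt (-1.29, limma adjusted p = 0.0133), and 0 were called higher. Irf4 gave -0.95 (adjusted p = 0.00949), short of 2-fold. Against Mock, Jchain was lower by -7.05 in EBF1ΔC and -5.76 in EBF1wt. Sdc1 was called higher in both (1.15 and 1.45) and Irf4 in EBF1wt (1.12). Of the pro-B markers, Rag1 and Dntt were called higher in EBF1ΔC than in EBF1wt and Igll1 lower. The part of all these markers in the Rgs10 and Rgs16 results was not tested.

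The genes whose pattern was most like that of Rgs10 over the 9 arrays, among 10746 genes well above background on all of them, were Mex3b, Mfsd6 and Gria2, with Pearson correlations of 0.986, 0.980 and 0.976. Their log2 changes in EBF1ΔC over EBF1wt were 1.29, 0.41 and 1.28. The 9 points share groups and slides, so the correlations describe these arrays only.

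Rgs12, a large R12 protein with a GoLoco motif that holds Gi-type alpha subunits in the GDP-bound state, had a signal of 2.64, 2.62 and 2.69 in EBF1ΔC cells, 2.48, 1.84 and 2.46 in EBF1wt cells, and 1.96, 1.68 and 1.49 in Mock cells (probe A_51_P125629, chr5:35376033-35376092, plus strand). EBF1ΔC lay above both other groups on every array, and EBF1wt overlapped Mock through replicate 2. The log2 change was 0.94 for EBF1ΔC over Mock (SE 0.18, limma adjusted p = 0.00218), 1.92-fold and so just short of the minimum. It was 0.55 for EBF1wt over Mock (adjusted p = 0.0256) and 0.39 for EBF1ΔC over EBF1wt (adjusted p = 0.234). Against Mock, EBF1ΔC was called without Mock replicate 1 (1.06), and with arrays scaled to their median both EBF1ΔC (1.49) and EBF1wt (1.26) were. A second, dim probe of Rgs12 gave 0.49 for EBF1ΔC and 0.40 for EBF1wt over Mock.

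Rgs14, the other GoLoco protein of the R12 subfamily, varied little. Its signal was 1.92, 1.83 and 2.12 in EBF1ΔC cells, 2.04, 2.02 and 1.86 in EBF1wt cells, and 2.32, 2.15 and 1.90 in Mock cells, with overlap in each comparison. The log2 changes were -0.01 for EBF1ΔC over EBF1wt, -0.15 for EBF1wt over Mock and -0.16 for EBF1ΔC over Mock (limma adjusted p = 0.964, 0.301 and 0.267).

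**Figure D3:**
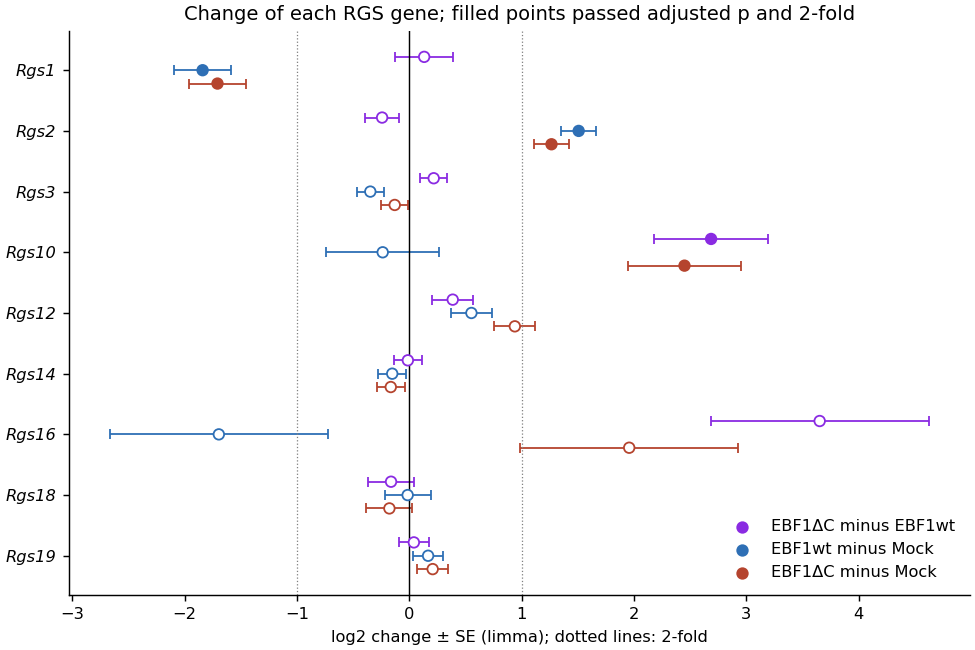
Log2 change with its SE (limma) for the 9 tested RGS genes in 3 comparisons, EBF1ΔC minus EBF1wt, EBF1wt minus Mock and EBF1ΔC minus Mock; filled points passed both the adjusted p and the 2-fold minimum marked by dotted lines. Rgs10 is filled in both EBF1ΔC comparisons, Rgs1 and Rgs2 in both Mock comparisons, and the open Rgs16 points carry an SE of 0.97.

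Rgs19, also called GAIP, acts on Gi-type and Gz alpha subunits, and its probes disagreed. By the brighter probe, A_52_P555235, the signal was 2.38, 2.30 and 2.60 in EBF1ΔC cells, 2.58, 2.33 and 2.26 in EBF1wt cells, and 2.45, 2.18 and 2.04 in Mock cells. The groups overlapped, and the changes against Mock were 0.21 for EBF1ΔC and 0.17 for EBF1wt (limma adjusted p = 0.205 and 0.299). By the other probe, A_51_P388984, the signal was 2.41, 2.27 and 2.17 in EBF1ΔC cells, 2.26, 2.20 and 2.32 in EBF1wt cells, and 1.72, 1.59 and 1.65 in Mock cells. There both EBF1 groups lay above Mock on every array, by 0.63 for EBF1ΔC and 0.61 for EBF1wt (limma adjusted p over all probes 0.00035 and 0.00041), under 2-fold. EBF1ΔC over EBF1wt gave 0.04 and 0.02 by the probes in the same order. Rgs2 probes ran the same way against Mock, as did those of Rgs12.

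**Figure D4:**
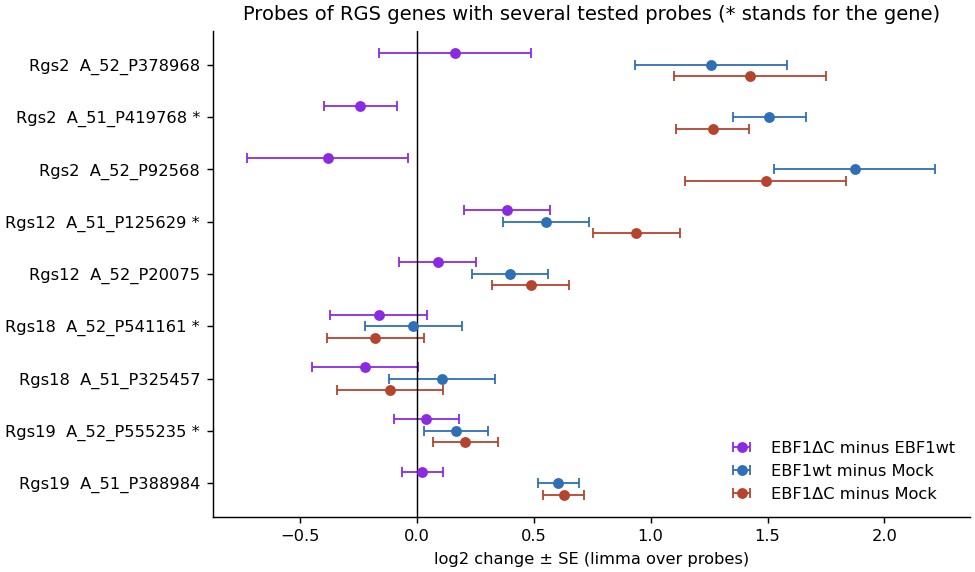
Log2 change with its SE (limma over all tested probes) for the RGS genes that had several tested probes, in 3 comparisons; a star marks the probe that stands for the gene. The 3 Rgs2 probes lie between 1.26 and 1.87 for EBF1wt minus Mock, while the Rgs19 probes give 0.17 and 0.61.

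Groups that do not overlap are common in these data, so separation alone says little. EBF1ΔC lay above EBF1wt without overlap for 3 of 9 members (Rgs10, Rgs12 and Rgs16), beside 13.4% of all tested genes, and below it for 0 of 9, beside 17.3%. EBF1wt lay above Mock for 1 member (Rgs2), beside 42.8% of genes, and below it for 3 (Rgs1, Rgs3 and Rgs16), beside 29.7%. EBF1ΔC lay above Mock for 4 (Rgs2, Rgs10, Rgs12 and Rgs16), beside 41.4%, and below it for 1 (Rgs1), beside 30.3%.

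The rest of the pathway was read from 6 lists of genes. Their counts of calls stand beside these shares of all tested genes. For EBF1ΔC over EBF1wt, 1.39% were called higher and 1.33% lower. For EBF1wt over Mock the shares were 6.6% and 12.9%, and for EBF1ΔC over Mock 6.25% and 11.9%. No test was made of these lists. Of the 47 calls named in the next paragraphs, 28 were lost with normexp correction and quantile normalization, and 29 with the authors' deposited values, in which 1 more (Ltb4r1) turned its sign. The calls of Gna12, Gnb4, Cxcr4, S1pr4, Gpr183 and Ccr6 against Mock, of Adcy7 in EBF1wt against Mock and of Rapgef3 in EBF1ΔC against Mock were kept in all alternatives that tested them. Of the remaining RGS genes and RGS-binding proteins, 13 of 14 were on the array and 2 could be tested, Rgs8 and Rgs11. Rgs11, an R7 protein that pairs with the G beta subunit Gnb5, was called lower against Mock in both EBF1 groups, by -2.07 in EBF1ΔC (SE 0.61, limma adjusted p = 0.0165) and -3.21 in EBF1wt (SE 0.61, adjusted p = 0.00183). It was well above background on 1 of 3 arrays in each EBF1 group and on all 3 in Mock. The EBF1ΔC call was lost without Mock replicate 3 or EBF1ΔC replicate 1 or 2, where the change ran from -2.79 to -1.67 over the left-out arrays.

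Of the G-protein alpha subunits, the substrates of RGS proteins, 11 of 13 could be tested. Between EBF1ΔC and EBF1wt 0 of 11 were called by limma, and 2 had an unadjusted p under 0.05. By the adjusted p alone 1 passed, Gna12, 0.80 higher in EBF1ΔC on the log2 scale (adjusted p = 0.00262). Against Mock, 3 rose in EBF1ΔC and 2 in EBF1wt, and none was called lower. Gna12, a widely expressed alpha subunit, was 1.61 higher in EBF1ΔC than in Mock on the log2 scale (adjusted p = 5.02e-06). In EBF1wt it was 0.81 higher than in Mock (adjusted p = 0.000169), short of 2-fold. Gnal, a stimulator of adenylyl cyclase, was higher by 1.48 in EBF1ΔC and 1.30 in EBF1wt, and Gnao1, of the Gi class, by 1.48 in EBF1ΔC and 1.22 in EBF1wt. The call of Gnao1 in EBF1wt was lost without Mock replicate 1 (0.92). The list's median change was 0.13 for EBF1ΔC over EBF1wt, 0.44 for EBF1wt over Mock and 0.52 for EBF1ΔC over Mock, beside -0.006, 0.12 and 0.10 over all genes.

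Of the beta and gamma subunits, 11 of 16 could be tested; limma called 0 between the EBF1 forms, and 2 had an unadjusted p under 0.05. Gnb4, a beta subunit, was higher than in Mock by 2.51 in EBF1ΔC (limma adjusted p = 4.27e-07) and 2.16 in EBF1wt (adjusted p = 7.01e-07). The gamma subunit Gng11 was lower than in Mock by -1.24 in EBF1ΔC and -1.35 in EBF1wt, and Gngt2 by -1.17 in EBF1wt. Gng7 was well above background in Mock cells alone, at least 1.37-fold lower in EBF1ΔC (adjusted p = 0.00104) and at least 1.20-fold lower in EBF1wt (adjusted p = 0.0105). With arrays scaled to their median, Gng11 was called in neither EBF1 group, and Gng7 and Gngt2 not in EBF1wt. The list's median change was 0.11 for EBF1ΔC over EBF1wt, -0.27 for EBF1wt over Mock and -0.24 for EBF1ΔC over Mock.

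Of 18 leukocyte receptors that signal through these G proteins, 13 could be tested, and here the largest changes of the pathway lay. Against Mock, 3 were called higher and 4 lower in each EBF1 group. Cxcr4, the receptor of the chemokine CXCL12 that holds early B cells in the bone marrow, was higher by 2.52 in EBF1ΔC and 2.30 in EBF1wt (limma adjusted p = 3.9e-06 and 5.78e-06). S1pr4, a receptor of sphingosine 1-phosphate, was higher by 1.64 in EBF1ΔC and 1.31 in EBF1wt. Its relative S1pr2 was well above background on no Mock array and at least 3.83-fold higher in EBF1ΔC and at least 2.68-fold higher in EBF1wt. Gpr183, an oxysterol receptor that guides mature B cells, was lower by -7.24 in EBF1ΔC and -6.51 in EBF1wt. Ccr6, the receptor of CCL20, was lower by -4.72 in EBF1ΔC and -5.83 in EBF1wt (2 of 3 EBF1wt arrays well above background). The EBF1wt values of Ccr6 had an SD of 2.81, and the change over Mock ran from -6.65 without EBF1wt replicate 3 to -4.21 without EBF1wt replicate 2. The leukotriene B4 receptor Ltb4r1 was lower by -3.52 in EBF1ΔC and -5.01 in EBF1wt, with 1 of 3 arrays well above background in either. Of its 3 EBF1wt values 1 was missing, as outlier spots were left out, so these sizes are imprecise. Both calls of Ltb4r1 were lost with the authors' deposited values, which gave -0.95 for EBF1ΔC and -0.63 for EBF1wt.

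Between EBF1ΔC and EBF1wt, 3 of the 13 receptors were called higher and 0 lower, beside 1.39% and 1.33% of all tested genes. All 3 calls were lost with slide as a fixed block. S1pr1, which guides lymphocytes out of tissues, was higher in EBF1ΔC by 1.11 (SE 0.13, limma adjusted p = 0.00168). Ccr9, the receptor of CCL25, was well above background on no EBF1wt array and at least 1.49-fold higher in EBF1ΔC (adjusted p = 0.0297). Ltb4r1 gave 1.49 (SE 0.30, adjusted p = 0.0253) from 1 of 3 arrays well above background in each group, and the authors' deposited values gave -0.32. Of its 3 EBF1wt values 1 was missing, as outlier spots were left out. The Ccr9 call was lost without any 1 of the Mock arrays, EBF1wt replicate 1 or EBF1ΔC replicate 1 or 2, where the fitted change ran from 1.01 to 1.73 over the left-out arrays. That of Ltb4r1 was lost without Mock replicate 3, EBF1wt replicate 2 or 3 or EBF1ΔC replicate 2, with a range of 1.23 to 1.81. The list's median change was 0.33 for EBF1ΔC over EBF1wt, -0.20 for EBF1wt over Mock and -0.0001 for EBF1ΔC over Mock.

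Of 21 other regulators of these receptors and G proteins (receptor kinases, arrestins, exchange factors and proteins with RGS-like domains), 18 could be tested. Limma called 0 between the EBF1 forms, where 4 had an unadjusted p under 0.05. By the adjusted p alone 1 passed there, the receptor kinase Grk5, at -0.51 for EBF1ΔC over EBF1wt (adjusted p = 0.00451). Against Mock, 2 were called higher in each EBF1 group. Arrb1, an arrestin that uncouples receptors, was higher by 1.18 in EBF1ΔC and 1.13 in EBF1wt. Arhgef12, a guanine nucleotide exchange factor with an RGS-like domain, was higher by 1.09 in EBF1ΔC and 1.18 in EBF1wt, and was not called in either group by the mean of its probes. The list's median change was 0.03 for EBF1ΔC over EBF1wt, 0.08 for EBF1wt over Mock and 0.12 for EBF1ΔC over Mock.

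Of 28 effectors downstream of G proteins, 19 could be tested, of which 2 were called higher and 2 lower in EBF1ΔC than in EBF1wt. Rapgef3, an exchange factor activated by cyclic AMP, was lower in EBF1ΔC than in EBF1wt by -2.83 (SE 0.32, limma adjusted p = 0.00149). Pde4a, a cyclic AMP phosphodiesterase, was well above background on no EBF1ΔC array and at least 3.04-fold lower there than in EBF1wt (adjusted p = 0.00134). Pde4c, of the same family, was higher by 1.23 (adjusted p = 0.00334), and the adenylyl cyclase Adcy7 by 1.05 (adjusted p = 0.000491). With slide as a fixed block the calls of Rapgef3, Pde4c and Adcy7 were lost and that of Pde4a was kept. Against Mock, EBF1ΔC cells had 2 effectors called higher and 6 lower, and EBF1wt cells 3 higher and 2 lower.

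Pde4d was higher than in Mock by 1.54 in EBF1ΔC and 1.24 in EBF1wt. Prkar2b, a regulatory subunit of protein kinase A, was called higher in EBF1ΔC (1.30) and gave 0.86 in EBF1wt, short of 2-fold. Prkacb, a catalytic subunit, was called higher in EBF1wt (1.09) and gave 0.86 in EBF1ΔC, also short of 2-fold. Between the EBF1 forms neither passed (limma adjusted p = 0.319 and 0.167). Rapgef3 was lower than in Mock by -1.74 in EBF1ΔC but 1.09 higher in EBF1wt, a call lost without EBF1wt replicate 2 (0.80). Pde4a was at least 2.58-fold lower in EBF1ΔC than in Mock, and Plcb2, a phospholipase C, was lower there by -1.54. Adcy7 was lower than in Mock by -1.88 in EBF1wt and by -0.83 in EBF1ΔC, the latter short of 2-fold. Adcy9 was lower than in Mock by -1.32 in EBF1wt. It was also called lower in EBF1ΔC (-1.45, limma adjusted p = 0.000369), outside the 3 largest and so not among the 47 calls. The list's median change was -0.22 for EBF1ΔC over EBF1wt, 0.12 for EBF1wt over Mock and -0.30 for EBF1ΔC over Mock.

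**Figure D5:**
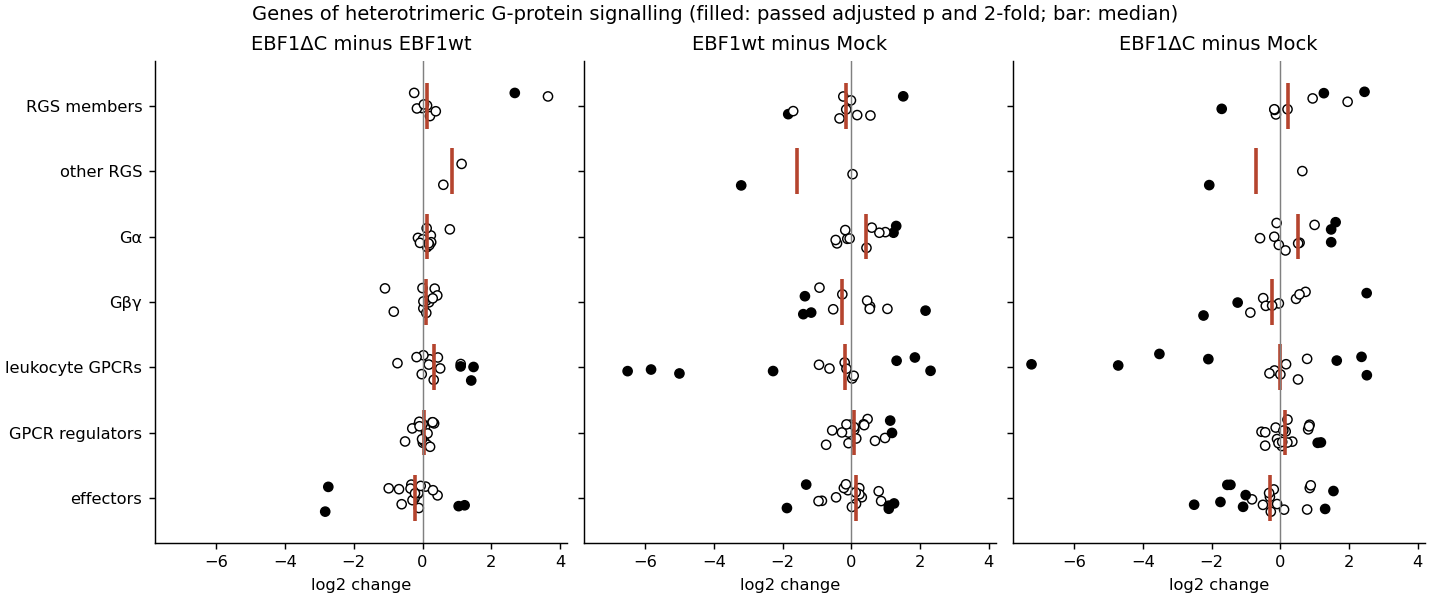
Fitted log2 change of each tested gene of the RGS members and of 6 lists of heterotrimeric G-protein signalling in 3 comparisons, with filled points for calls, open points for no call and a red bar at the list's median; points are spread vertically only to be seen. The leukocyte receptors span the widest range against Mock, down to -7.24, and the fitted values of genes below background in 1 group (Pde4a, Gng7, Ccr9 and S1pr2 among the calls) are not bounds.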

How the data were processed

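The authors hybridised Cy3-labelled RNA to 9 arrays in 1 colour, per the labels' protocols. The deposited scanner files hold spot intensity from Agilent Feature Extraction (10.5.1.1 per the file headers, 9.1 per the submitters' processing notes), background-subtracted but not normalized between arrays. The authors' deposited log2 values, whose normalization is not given in the sources used here, served as an alternative. Control spots and 73 to 163 outlier spots per array were left out, and log2 processed intensity minus the 75th percentile of each array was fitted with limma 3.58.1 (R 4.3.3) over all 9 arrays. Each gene was represented by its probe with the highest mean. Genes tested had a probe well above background on all 3 arrays of a group; of 41174 probes, 34898 had a gene name. Members and lists were chosen with earlier results of these data known. Named were all members and, per list, comparison and direction, up to 3 called genes with the largest change, plus the 3 genes most like each member called between the EBF1 forms. Arrays with the same replicate number showed little shared deviation from their group means (correlations from -0.18 to 0.12) and were not treated as paired. Whether the samples were paired is not settled by this. Tests were checked on simulated data.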

Additional observations from a re-analysis of the deposited data

How the results depend on the processing

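The Rgs1 and Rgs2 calls against Mock were kept in all 21 alternatives tested, as was the Rgs10 call of EBF1ΔC against Mock. Members called between EBF1ΔC and EBF1wt numbered 1 as reported, 2 with normexp correction, scaling to the median, the authors' values or array weights, 0 without a filter on dim probes, in the fit of only 2 groups or with slide as a fixed block, and 1 to 2 with an array left out. The count for EBF1wt against Mock was 2, 4 with no minimum fold and 3 with median scaling (2 to 2 with an array left out); for EBF1ΔC against Mock it was 3, 5 with median scaling and 4 with no minimum fold, normexp correction, the authors' values, array weights or the fit of only 2 groups (3 to 4). With replicate number as a block the counts stayed at 1, 2 and 3. Median scaling moved the median of all genes to -0.16 for EBF1ΔC over EBF1wt, 0.82 for EBF1wt over Mock and 0.65 for EBF1ΔC over Mock, and raised the genes called for EBF1wt over Mock to 5390, from 2346.

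Signs turned only for changes without a call, apart from Ltb4r1. For EBF1ΔC over EBF1wt these were Rgs1 (-0.0256 with median scaling, -0.12 with array weights, -0.0616 within slide 5, -0.17 to 0.30 with an array left out), Rgs2 (0.265 within slide 4), Rgs14 (0.0466 with normexp, 0.0151 with quantile normalization, 0.0339 with the authors' values, 0.0808 with a slide block, 0.0993 within slide 4, 0.0622 within slide 5, -0.0934 to 0.0486 left out), Rgs18 (-0.317 to 0.0566 left out), Rgs19 (-0.12 with median scaling, -0.00827 with the authors' values, -0.0241 with array weights, -0.0454 to 0.134 left out) and Ltb4r1 (-0.32 with the authors' values). For EBF1wt over Mock they were Rgs3 (0.36 with median scaling), Rgs10 (0.14 with normexp, 0.43 quantile, 0.47 median, 0.12 authors' values, 0.18 weights, -0.57 to 0.35 left out), Rgs14 (0.55 median), Rgs18 (0.0516 normexp, 0.0877 quantile, 0.69 median, 0.0735 authors' values, 0.0459 mean of probes, -0.23 to 0.12 left out) and Rgs19 (-0.17 normexp, -0.0124 quantile). For EBF1ΔC over Mock they were Rgs3 (0.42), Rgs14 (0.38) and Rgs18 (0.37) with median scaling and Rgs19 (-0.12) with normexp. Differences within 1 slide have no test. The cause was not tested. Of the 47 named pathway calls, 9 were lost with median scaling, 7 with quantile normalization, 28 with normexp correction and 29 with the authors' values. A slide block was tested only between the EBF1 forms, where 6 named calls were lost and 1, that of Pde4a, was kept. Each other alternative lost 0 to 4. Alternatives for the pathway lists were added after the data were seen. Low signal limits Rgs13, the dim probes of Rgs3 and Rgs16 in EBF1wt.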
